A study of Arabidopsis thaliana with 18 samples.

Results

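The 10 cytosolic heat shock genes described here were chosen by locus: HSP101 (AT1G74310), HSP90.1 (AT5G52640), HSP70-4 (AT3G12580), HSP70B (AT1G16030), HSFA2 (AT2G26150), HSFA7A (AT3G51910), HSFB1 (AT4G36990), HSP17.4 (AT3G46230), HSP17.6II (AT5G12020) and HSP17.6A (AT5G12030). They are 10 of the 25537 genes with measured RNA, and all 10 passed the filter on low counts. The libraries hold RNA with poly(A) tails from the roots of Arabidopsis thaliana seedlings that were 4 days old and grew on medium with sucrose in a cycle of 16 h light and 8 h dark, and the labels record no treatment and thus no heat stress. The 6 groups have 3 libraries each: wild type of the Col accession (WT), the rab8d-2 mutant, and 4 double mutants that carry rab8d-2 together with nac085-1, nac044-1, atm-2 or sog1-1, each named below by its second allele. RAB8D encodes the plastid translation elongation factor EF-Tu, ATM a kinase activated by DNA breaks, SOG1 the transcription factor that it acts through, and NAC044 and NAC085 related transcription factors. Each mutated gene is represented by 1 allele, and lines with the second mutation alone were not analysed here.

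Heat shock genes encode molecular chaperones, proteins that keep other proteins folded. Heat shock factors (HSFs) bind repeated GAA units, called heat shock elements, and class A factors activate transcription there, while class B factors such as HSFB1 can repress it. Small heat shock proteins hold unfolding proteins, HSP70 and HSP90 help them fold with the use of ATP, and HSP101 pulls proteins out of aggregates. In plants these genes are best known for their rise under heat, and basal levels at moderate temperature are low for most of them.

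The promoters of HSFA2, HSFA7A and HSP17.4 are shown because they hold a triple heat shock element, and that of HSP17.6II because it holds none and its RNA had the widest range of the 10 genes. Each run gives the 250 bases before the annotated gene start in RefSeq's TAIR10.1 assembly, 5′ to 3′ on the strand of the gene. The HSFA2 window is chr2:11135374-11135623 on the plus strand, the HSFA7A window chr3:19264891-19265140 on the plus strand, the HSP17.4 window chr3:16984868-16985117 on the minus strand and the HSP17.6II window chr5:3883112-3883361 on the minus strand. Capitals mark heat shock elements in the first 3 and the match to the SOG1 binding motif in HSP17.6II.
HSFA2: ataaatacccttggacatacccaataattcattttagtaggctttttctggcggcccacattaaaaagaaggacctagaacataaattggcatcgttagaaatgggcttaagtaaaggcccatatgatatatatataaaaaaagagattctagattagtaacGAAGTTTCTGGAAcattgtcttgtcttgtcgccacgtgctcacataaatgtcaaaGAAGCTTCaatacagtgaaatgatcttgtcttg
HSFA7A: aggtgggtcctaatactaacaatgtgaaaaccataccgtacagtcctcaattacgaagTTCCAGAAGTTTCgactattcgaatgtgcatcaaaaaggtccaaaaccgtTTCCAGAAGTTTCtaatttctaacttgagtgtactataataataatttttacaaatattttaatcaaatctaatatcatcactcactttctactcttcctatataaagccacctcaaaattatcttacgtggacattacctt
HSP17.4: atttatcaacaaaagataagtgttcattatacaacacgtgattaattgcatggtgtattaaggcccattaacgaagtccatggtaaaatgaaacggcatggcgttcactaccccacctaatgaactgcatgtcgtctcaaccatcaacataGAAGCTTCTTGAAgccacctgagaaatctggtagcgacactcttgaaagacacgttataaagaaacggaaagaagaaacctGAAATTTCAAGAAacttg
HSP17.6II: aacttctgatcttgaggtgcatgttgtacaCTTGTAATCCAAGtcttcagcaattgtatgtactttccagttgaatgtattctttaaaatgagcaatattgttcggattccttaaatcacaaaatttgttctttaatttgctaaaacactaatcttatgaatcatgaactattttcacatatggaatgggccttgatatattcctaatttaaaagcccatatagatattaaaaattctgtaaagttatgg

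A heat shock element was searched as GAANNTTC, as TTCNNGAA and as a triple of 3 units, GAANNTTC continued by NNGAA, or its reverse complement, on both strands, and the triple contains an overlapping match of each of the shorter motifs. Either short motif stood in the window of 4 of the 10 genes (HSFA2, HSFA7A, HSP17.4 and HSP17.6A) and in 16.2% of 27438 promoters of this length. The triple stood in 3 of the 10 and in 0.386% of all promoters. HSFA7A and HSP17.4 had 2 triples each and HSFA2 had 1, from 88 to 76 bases before its start. The palindromic motif bound by SOG1, CTT and AAG with 7 bases between, stood in 1 of the 10 and in 9.71% of all promoters. That gene was HSP17.6II, with the match from 220 to 208 bases before its start. The G-box CACGTG stood in HSFA2 and HSP17.4 and in 6.49% of all promoters, and the evening element AAATATCT, a clock motif, in none of the 10 and in 4.79% of all. A match describes these letters only, and an element outside the window is not seen by this search. The HSP90.1 window ends in letters that can be read as a start codon and further codons (atggcggatgttcag). Its annotated start may thus lie inside the coding sequence, with part of the promoter outside the window. That no element was found for HSP90.1 may come from this annotation.

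The genes lie on all 5 chromosomes, with HSP101 at chr1:27936508-27940369, HSP70B at chr1:5501966-5504535, HSFA2 at chr2:11135624-11137792, HSP70-4 at chr3:3991117-3993886, HSP17.4 at chr3:16984118-16984867, HSFA7A at chr3:19265141-19266806, HSFB1 at chr4:17440177-17442151 and HSP90.1 at chr5:21352557-21355147, all in TAIR10.1. HSP17.6II (chr5:3882231-3883111) and HSP17.6A (chr5:3883957-3884838) are neighbours on the minus strand, 845 bases apart with 0 genes between them. Their transcripts share 81.8% of bases over the aligned stretch. The closest match of each of the 10 transcripts at another locus of the genome shared 74.1% to 82.5% over its aligned stretch. That stretch ranged from 199 of 1783 bases (HSFB1) to 1848 of 2103 (HSP90.1). The deposited counts are estimates that divide reads shared between genes.

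Library totals were 20103600 to 20471200 estimated counts, and normalised counts (CPM) are relative to library size after scaling. RAB8D had 90.24 CPM in WT, 11.4 in rab8d-2 and 13.2 to 17.7 in the double mutants, and ATM fell from 53.7 in rab8d-2 to 5.51 in the atm-2 double mutant. NAC044 had 19.4 CPM in rab8d-2 and 159.8 in the double mutant labelled nac044-1, so its RNA goes against a loss of transcript and that group is called by its label. SOG1 RNA, at 24.98 CPM in rab8d-2 and 29.4 in the sog1-1 double mutant, gives no check of that label, and NAC085 RNA was scarce, at 1.73 and 0.915 CPM in rab8d-2 and the nac085-1 double mutant. For rab8d-2 the titles were followed, since 1 of its label fields reads as wild type.

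The summed level of 8 root markers was 514 to 533 CPM per library in rab8d-2 and 517 to 544 with the nac044-1 label, beside 619 to 630.4 in WT and 586 to 664 in the other double mutants, and the sums of 5 of 6 shoot markers, found in the table, were 16.9 to 25.2 CPM. Of the 8 root markers, 4 were lower in rab8d-2 than in WT, namely COBL9 and EXP7 of root hairs (-0.60 and -0.59) and CASP1 and ESB1 of the endodermal barrier (-0.43 and -0.71), and the other 4 were higher, by 0.18 to 0.28. Of all genes, 32.9% were lower and 31.7% higher there. Against rab8d-2, 6 of the 8 markers were higher and 0 lower with atm-2, beside 31.7% and 29.9% of all genes. The 0 was also 0 at an unadjusted p under 0.05 in edgeR and in DESeq2. With sog1-1 the counts were 5 and 1, beside 28.7% and 26.0%. They were 1 and 1 with the nac044-1 label, beside 24.3% and 18.6%, and 6 and 1 with nac085-1, beside 31.8% and 31.7%. Of the shoot markers, CER6, an enzyme of wax synthesis, had 0.434 CPM in WT and 4.03 in rab8d-2, and LHCB2.1, a light-harvesting protein, had 0.681 to 1.47 CPM in the libraries of the atm-2 and sog1-1 double mutants and at most 0.101 in any other. CAB3, another light-harvesting protein, was at most 0.866 CPM and at 0 in some libraries. The part of these shifts in the heat shock results was not tested.

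In rab8d-2 against WT, the comparison that asks what follows a reduced plastid EF-Tu, 6 of the 10 heat shock genes were lower and 1 was higher. The share of all 19981 tested genes called lower at an adjusted p under 0.05 was 32.9%, and the share called higher was 31.7%. The 6 lower genes were HSP17.4, HSFA7A, HSP101, HSFA2, HSP70-4 and HSP90.1, with log2 fold changes of -1.10 to -0.41, and the higher one was HSFB1 at 0.25. HSP70B, HSP17.6II and HSP17.6A were not called, at 0.04, 0.15 and -0.06. The median of the 10 was -0.44, and that of all tested genes lay between -0.02 and 0.02 in each of the 15 comparisons. In RNA of whole roots, fewer cells of a type and less RNA per cell cannot be told apart.

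The comparisons of each double mutant with rab8d-2 ask what the second mutation adds, and all 4 share the rab8d-2 libraries. In the atm-2 double mutant, 4 of the 10 were higher and 5 lower, beside 31.7% and 29.9% of all genes. In the sog1-1 double mutant, 3 were higher and 5 lower, beside 28.7% and 26.0%. With the nac044-1 label, 8 were higher and 0 lower, beside 24.3% and 18.6%. The count of 0 lower there was also 0 at an unadjusted p under 0.05 in edgeR and in DESeq2, and upper quartile scaling turns the split of all calls in this comparison from 4859 higher and 3720 lower to 3827 and 4766, with 7 of the 10 genes still higher. In the nac085-1 double mutant, 4 were higher and 4 lower, beside 31.8% and 31.7%. The median log2 fold change of the 10 genes was -0.10, -0.19, 0.47 and 0.15 in that order.

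Against WT, which all 4 share as control, 3 of the 10 were higher and 5 lower in the atm-2 double mutant, beside 35.1% and 33.5% of all genes. In the sog1-1 double mutant the counts were 2 and 5, beside 28.8% and 29.2%. With the nac044-1 label they were 5 and 3, beside 29.3% and 28.8%, and in the nac085-1 double mutant 3 and 6, beside 32.5% and 32.4%. Large shares of all genes were called in every comparison. Among the comparisons with WT or rab8d-2, the count farthest above such a share was the 8 of 10 higher with the nac044-1 label against rab8d-2.

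Between the double mutants, 3 of the 10 genes were higher and 2 lower with sog1-1 than with atm-2, beside 27.8% and 30.0% of all genes. The nac044-1 label had 8 higher and 1 lower than atm-2, beside 31.8% and 33.9%, and 9 higher and 1 lower than with sog1-1, beside 26.1% and 26.1%. With nac085-1 the counts were 4 and 1 against atm-2 (24.3% and 24.0% of all genes), 3 and 4 against sog1-1 (28.0% and 28.5%) and 1 and 8 against the nac044-1 label (29.3% and 29.2%). The 3 higher with sog1-1 than with atm-2 were HSP90.1, HSP70-4 and HSP17.4, of which HSP17.4 (0.36, adjusted p = 0.0389) lost the call with DESeq2, with upper quartile scaling and without any of 5 single libraries. HSP17.6II was the gene that was lower with the nac044-1 label than with atm-2 and with sog1-1, and HSFB1 the one that was higher with nac085-1 than with the nac044-1 label. The fall of HSP17.6II with nac085-1 against the nac044-1 label (-0.59) was lost with DESeq2 (adjusted p = 0.076) and without any of 3 single libraries, and that HSFB1 was higher with the nac044-1 label than with atm-2 (0.09) was lost with upper quartile scaling (0.03, adjusted p = 0.296).

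**Figure D1:**
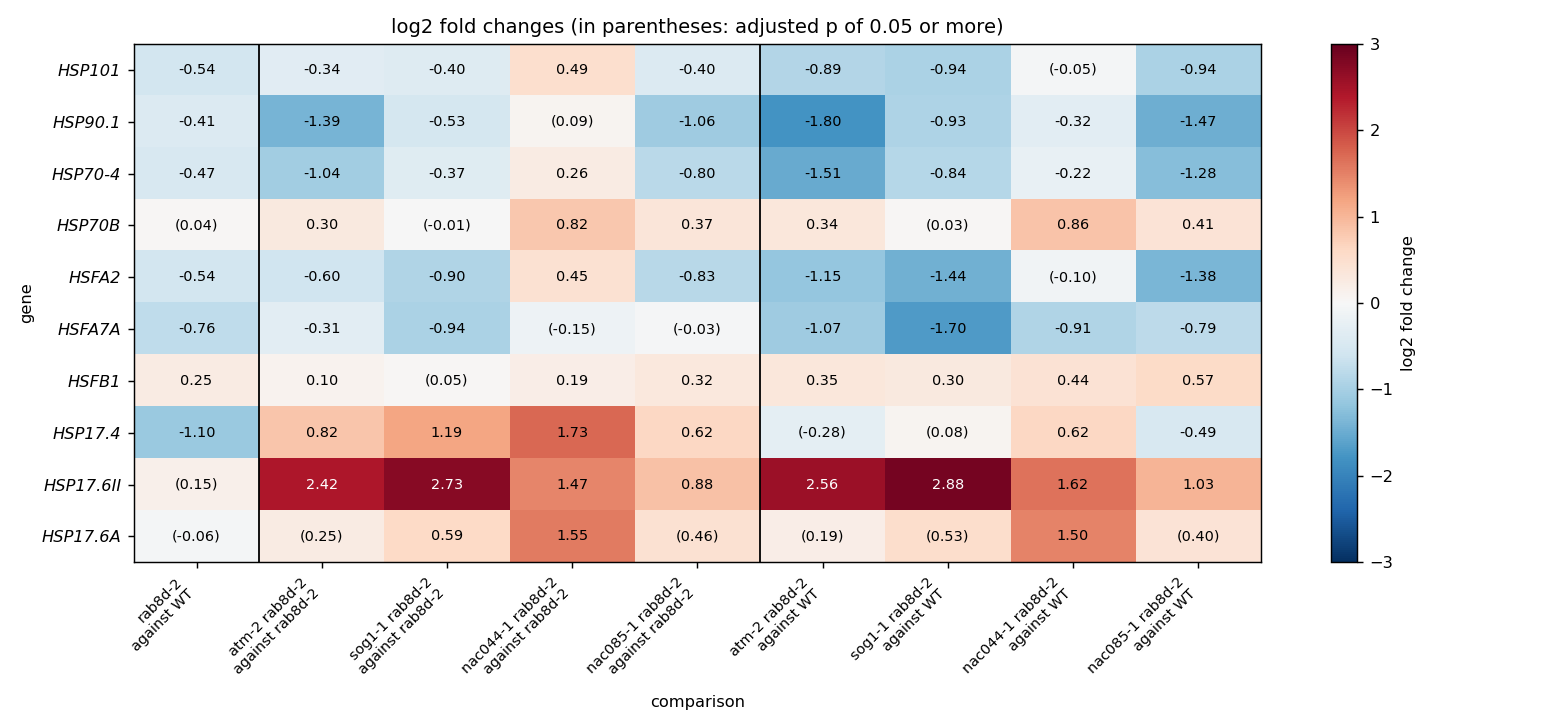
log2 fold changes of the 10 genes (rows) in 9 comparisons (columns), with the value in each cell, blue for lower and red for higher, and parentheses where the adjusted p was 0.05 or more. HSP17.6II spans up to 2.88 in the sog1-1 double mutant against WT, and HSP90.1 down to -1.80 in the atm-2 double mutant against WT.

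HSFA2, a class A factor that is strongly induced by heat and prolongs the heat response, was scarce in all groups. Its 3 libraries had 3.65, 2.87 and 3.31 CPM in WT, 2.12, 2.47 and 2.16 in rab8d-2 and 3.13, 2.63 and 3.42 with the nac044-1 label. It had 1.31, 1.56 and 1.55 CPM in the atm-2 double mutant, 1.27, 1.38 and 0.963 in the sog1-1 double mutant and 1.17, 1.82 and 0.792 in the nac085-1 double mutant. All WT libraries thus lay above all rab8d-2 libraries, and these above all libraries of the atm-2, sog1-1 and nac085-1 double mutants. HSFA2 fell by 0.54 ± 0.17 on the log2 scale (SE, n = 3 per group) in rab8d-2 against WT (adjusted p = 0.00517). Against rab8d-2 it fell further by 0.60 ± 0.21 with atm-2 (adjusted p = 0.00921), by 0.90 ± 0.22 with sog1-1 (adjusted p = 0.000449) and by 0.83 ± 0.22 with nac085-1 (adjusted p = 0.000673). These 3 double mutants did not differ beyond their spread, with adjusted p values of 0.297 to 0.838 among them, and 16 to 37 estimated counts per library behind them. With the nac044-1 label its level exceeded that of rab8d-2 by 0.45 ± 0.17 (adjusted p = 0.0339), a call that DESeq2 (adjusted p = 0.134), upper quartile scaling (0.055) and leaving out 4 of the 6 libraries in turn (up to 0.150) did not keep.

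HSFA7A, another class A factor of the heat response, was higher in every WT library than in any other library. It had 15.2, 13.6 and 14.1 CPM in WT, 8.47, 8.51 and 8.34 in rab8d-2 and 7.20, 6.53 and 6.74 in the atm-2 double mutant. The other double mutants had 3.85, 4.58 and 4.76 (sog1-1), 7.05, 7.50 and 8.23 (the nac044-1 label) and 8.01, 8.80 and 8.02 (nac085-1). The sog1-1 double mutant was the lowest and overlapped no other group. HSFA7A fell by 0.76 ± 0.08 in rab8d-2 against WT (adjusted p = 1.38e-11) and by a further 0.94 ± 0.11 in the sog1-1 double mutant against rab8d-2 (adjusted p = 1.02e-10). The sog1-1 double mutant was also below the atm-2 double mutant, by -0.63 ± 0.11 (adjusted p = 2.21e-06). With atm-2 HSFA7A was lower than in rab8d-2 (-0.31 ± 0.09, adjusted p = 0.0039). With nac044-1 and nac085-1 the difference from rab8d-2 was -0.15 ± 0.09 and -0.03 ± 0.09, neither called.

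HSFB1, the class B factor also known as TBF1 for its role in the switch from growth to defence, had a transcript level scaled by length (TPM) of 185 in WT, beside 20.7 for HSFA7A and 3.15 for HSFA2. Its libraries had 218, 226 and 216 CPM in WT, 257, 268 and 261 in rab8d-2 and 289, 272 and 279 in the atm-2 double mutant. It had 272, 265 and 274 in the sog1-1 double mutant, 302, 301 and 292 with the nac044-1 label and 339.6, 319 and 324 in the nac085-1 double mutant. WT was the lowest group and the nac085-1 double mutant the highest, and neither overlapped another group. HSFB1 rose by 0.25 ± 0.03 in rab8d-2 against WT (adjusted p = 1.3e-10) and by 0.57 ± 0.03, or 1.49-fold, in the nac085-1 double mutant against WT (adjusted p = 3.59e-23). Against rab8d-2 it was higher by 0.32 ± 0.03 with nac085-1, 0.19 ± 0.03 with the nac044-1 label and 0.10 ± 0.03 with atm-2 (adjusted p = 0.00239), while sog1-1 was at 0.05 ± 0.03 (adjusted p = 0.164). Without replicate 1 of the atm-2 double mutant the atm-2 value was 0.07 with an adjusted p of 0.0671.

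**Figure D2:**
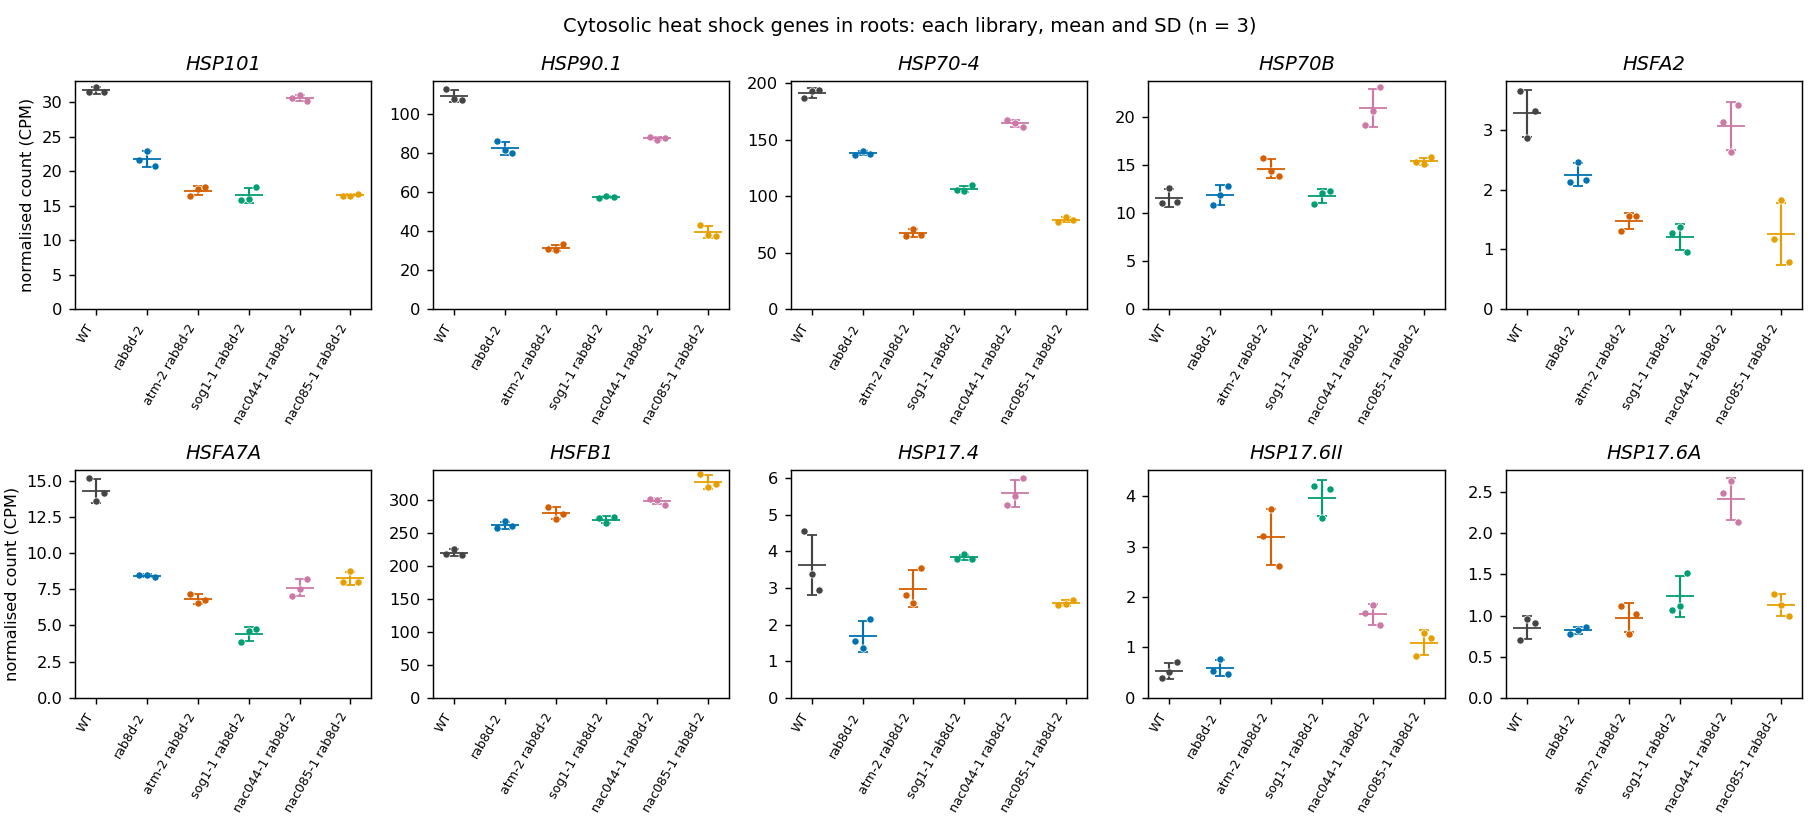
Normalised counts (CPM, linear axes from 0) of each of the 10 genes by genotype, with each library as a point, the group mean as a line and the SD as a bar (n = 3). HSP90.1 and HSP70-4 are lowest in the atm-2 double mutant (31.5 and 67.2 CPM), HSFB1 is highest in the nac085-1 double mutant (328 CPM), and HSP17.6II is highest in the sog1-1 double mutant (3.98 CPM).

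HSP90.1, the heat-inducible cytosolic HSP90, differed 3.47-fold between the means of WT and the atm-2 double mutant. Its libraries had 113, 108 and 107 CPM in WT, 86.3, 81.3 and 79.8 in rab8d-2 and 30.8, 30.4 and 33.2 in the atm-2 double mutant. It had 56.7, 57.9 and 57.2 in the sog1-1 double mutant, 88.1, 86.8 and 87.6 with the nac044-1 label and 42.9, 38.0 and 37.5 in the nac085-1 double mutant. No group overlapped another, and the atm-2 double mutant was the lowest. HSP90.1 fell by 0.41 ± 0.04 in rab8d-2 against WT (adjusted p = 1.72e-13). Against rab8d-2 it was 2.62-fold lower with atm-2 (-1.39 ± 0.05, adjusted p = 1.08e-30), 2.09-fold lower with nac085-1 (-1.06 ± 0.04, adjusted p = 1.62e-26) and 1.44-fold lower with sog1-1 (-0.53 ± 0.04, adjusted p = 1.38e-15). The difference between the nac085-1 double mutant and the atm-2 double mutant was 0.33 ± 0.05 (adjusted p = 3.19e-07) and that between the sog1-1 double mutant and the atm-2 double mutant 0.86 ± 0.05 (adjusted p = 2.95e-21). With the nac044-1 label it was at 0.09 ± 0.04 against rab8d-2 (adjusted p = 0.064), which passed the threshold without replicate 1 of rab8d-2 (0.12, adjusted p = 0.02).

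HSP70-4, a heat-inducible cytosolic HSP70, ordered the genotypes as HSP90.1 did. It had 187, 193 and 194 CPM in WT, 168, 165 and 162 with the nac044-1 label and 137, 140.2 and 137 in rab8d-2. The libraries of the sog1-1 double mutant had 106, 104 and 109.8, those of the nac085-1 double mutant 77.2, 81.3 and 78.8, and those of the atm-2 double mutant 65.1, 71.4 and 65.2. No group overlapped its neighbour in this order, and each of the 5 steps passed the test, by 0.22 to 0.43 on the log2 scale with adjusted p values from 7.58e-15 to 7.63e-07. HSP70-4 fell by 0.47 ± 0.03 in rab8d-2 against WT (adjusted p = 4.21e-18) and by 1.04 ± 0.04 in the atm-2 double mutant against rab8d-2 (adjusted p = 9.54e-30). It rose by 0.26 ± 0.03 with the nac044-1 label against rab8d-2 (adjusted p = 3.5e-09) and stayed below WT there, at -0.22 ± 0.03 (adjusted p = 4.74e-08).

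HSP101, the cytosolic disaggregase that seedlings need to acquire tolerance to heat, was higher than in rab8d-2 in WT and with the nac044-1 label, and lower with the other second mutations. It had 31.4, 32.2 and 31.4 CPM in WT and 30.6, 31.0 and 30.2 with the nac044-1 label, and the difference between these groups was -0.05 ± 0.05 (adjusted p = 0.396). It had 21.6, 22.9 and 20.7 in rab8d-2, 16.4, 17.3 and 17.7 in the atm-2 double mutant, 15.9, 15.9 and 17.7 in the sog1-1 double mutant and 16.4, 16.4 and 16.7 in the nac085-1 double mutant. The 3 lowest groups overlapped each other and none overlapped rab8d-2. HSP101 fell by 0.54 ± 0.05 in rab8d-2 against WT (adjusted p = 1.27e-12), and by 0.34 ± 0.06, 0.40 ± 0.06 and 0.40 ± 0.06 more with atm-2, sog1-1 and nac085-1 against rab8d-2. With the nac044-1 label its level exceeded that of rab8d-2 by 0.49 ± 0.05 (adjusted p = 7.79e-11).

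HSP70B, another heat-inducible cytosolic HSP70, followed another order than HSP70-4. Its libraries had 11.0, 12.6 and 11.1 CPM in WT, 10.8, 11.9 and 12.8 in rab8d-2 and 10.9, 12.1 and 12.3 in the sog1-1 double mutant, which all overlapped. It had 15.72, 14.3 and 13.8 in the atm-2 double mutant, 15.2, 15.1 and 15.8 in the nac085-1 double mutant and 19.1, 20.6 and 23.1 with the nac044-1 label, the highest of the 6 groups. Against rab8d-2, HSP70B rose by 0.82 ± 0.07 with the nac044-1 label (adjusted p = 5.29e-13), by 0.37 ± 0.08 with nac085-1 (adjusted p = 5.38e-05) and by 0.30 ± 0.08 with atm-2 (adjusted p = 0.000967). In the atm-2 double mutant it was thus higher than in rab8d-2 where HSP70-4 and HSP90.1 were lower.

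HSP17.6II, a class II small heat shock protein, had the widest range of the 10 genes, 7.43-fold between the means of the sog1-1 double mutant and WT. It had 0.400, 0.503 and 0.702 CPM in WT and 0.530, 0.773 and 0.479 in rab8d-2, from 8 to 16 estimated counts per library, and these groups overlapped. It had 3.21, 3.75 and 2.62 CPM in the atm-2 double mutant and 4.21, 3.56 and 4.16 in the sog1-1 double mutant, from 54 to 83 estimated counts, and these groups overlapped too. The libraries labelled nac044-1 had 1.69, 1.84 and 1.44 CPM and those of the nac085-1 double mutant 0.826, 1.28 and 1.19. All 4 double mutants lay above WT and rab8d-2 in every library. For nac085-1 the gap was narrow at these low counts, with 0.826 CPM in its lowest library beside 0.773 in the highest of rab8d-2. Against rab8d-2, HSP17.6II rose by 2.73 ± 0.26 with sog1-1 (adjusted p = 3.91e-15), 2.42 ± 0.26 with atm-2 (adjusted p = 3.75e-13), 1.47 ± 0.28 with the nac044-1 label (adjusted p = 8.42e-06) and 0.88 ± 0.30 with nac085-1 (adjusted p = 0.00748). The difference between sog1-1 and atm-2 double mutants was 0.32 ± 0.15 (adjusted p = 0.0647), and it passed the threshold without replicate 2 of atm-2 (0.45, adjusted p = 0.0203) or of sog1-1 (0.39, adjusted p = 0.0426).

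HSP17.6A, the neighbouring class II gene, did not follow HSP17.6II. It had 0.700, 0.956 and 0.903 CPM in WT, 0.770, 0.822 and 0.863 in rab8d-2, 1.12, 0.779 and 1.02 in the atm-2 double mutant, 1.06, 1.12 and 1.52 in the sog1-1 double mutant and 1.26, 1.13 and 0.990 in the nac085-1 double mutant. The libraries labelled nac044-1 had 2.48, 2.63 and 2.13 and overlapped no other group. HSP17.6A rose there by 1.55 ± 0.23 against rab8d-2 (adjusted p = 3.47e-08) and by 1.496 ± 0.23 against WT (adjusted p = 4.44e-08). With sog1-1 the value against rab8d-2 was 0.59 ± 0.25 (adjusted p = 0.0427), on 16 to 30 estimated counts per library, and the call was lost with DESeq2 (adjusted p = 0.130), with upper quartile scaling, without the filter, with only the groups compared and without any of 4 single libraries (adjusted p up to 0.248). With atm-2 HSP17.6A was at 0.25 ± 0.26 where its neighbour was at 2.42.

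HSP17.4, a class I small heat shock protein with 2 triple elements in the promoter shown above, was lowest in rab8d-2. It had 4.55, 3.37 and 2.96 CPM in WT, 1.54, 1.35 and 2.16 in rab8d-2 and 2.82, 2.58 and 3.54 in the atm-2 double mutant. It had 3.80, 3.92 and 3.80 in the sog1-1 double mutant, 5.27, 5.51 and 5.998 with the nac044-1 label and 2.53, 2.56 and 2.67 in the nac085-1 double mutant. No other group reached down into the rab8d-2 libraries, and the nac044-1 label was the highest group with no overlap. HSP17.4 fell by 1.10 ± 0.18 in rab8d-2 against WT (adjusted p = 4.45e-07), the largest fall of the 10 genes in that comparison. Against rab8d-2 it rose by 1.73 ± 0.17 with the nac044-1 label (adjusted p = 1.11e-12), 1.19 ± 0.18 with sog1-1 (adjusted p = 1.22e-07), 0.82 ± 0.19 with atm-2 (adjusted p = 0.000131) and 0.62 ± 0.19 with nac085-1 (adjusted p = 0.00434). Against WT the nac044-1 label was higher by 0.62 ± 0.14 (adjusted p = 0.000111), nac085-1 lower by -0.49 ± 0.16 (adjusted p = 0.00715), and atm-2 and sog1-1 were at -0.28 ± 0.16 and 0.08 ± 0.15. The nac085-1 value was -0.29 with an adjusted p of 0.146 without replicate 1 of WT, and the atm-2 value passed the threshold without replicate 3 of WT (-0.41, adjusted p = 0.0287) or replicate 3 of the atm-2 double mutant (-0.43, adjusted p = 0.0278).

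Levels between genes are compared in TPM, the authors' values. HSFB1 had the highest TPM of the 10 genes in every genotype, from 185 in WT to 284 in the nac085-1 double mutant. HSP70-4 came next, from 107 in WT to 38.7 in the atm-2 double mutant, followed by HSP90.1, from 75.4 to 22.3. HSFA2, HSP17.6A and HSP17.6II were at most 8.41 TPM in any group. The 10 genes summed to 424 TPM in WT, 407 in rab8d-2, 348 in the atm-2 double mutant, 363 in the sog1-1 double mutant, 482 with the nac044-1 label and 399.8 in the nac085-1 double mutant. HSFB1 made up 43.5% of this sum in WT and 71.0% in the nac085-1 double mutant, while HSP70-4 and HSP90.1 together made up 43.0% in WT and 17.5% in the atm-2 double mutant.

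By mean CPM, several neighbours in the order of the genotypes did not differ beyond their spread. For HSFA7A these were rab8d-2, the nac085-1 double mutant, the nac044-1 label and the atm-2 double mutant, each beside the next, with adjusted p values of 0.152 to 0.799, although the ends of this series, rab8d-2 and the atm-2 double mutant, did differ (-0.31, adjusted p = 0.0039). For HSFB1 they were the atm-2 double mutant, the sog1-1 double mutant and rab8d-2, with adjusted p values of 0.113 and 0.164. For HSP17.4 they were the sog1-1 double mutant, WT, the atm-2 double mutant and the nac085-1 double mutant, with adjusted p values of 0.102 to 0.657. For HSP17.6A only the step from the nac044-1 label down to the sog1-1 double mutant passed the test (adjusted p = 4.74e-05).

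Other genes of the heat response were counted from lists of related chaperones and factors. Each count of 0 in these lists was also 0 at an unadjusted p under 0.05 in edgeR and in DESeq2. Of 11 other small heat shock genes tested, 0 were higher and 3 lower in rab8d-2 against WT, beside 31.7% and 32.9% of all genes. The 3 lower ones were HSP17.6B (-1.12 ± 0.06), HSP17.6A-CI (-0.61 ± 0.16) and HSP18.2 (-0.59 ± 0.20). HSP21, also on that list of 12, did not pass the filter. HSP17.6B, a class I gene, had 27.0 ± 1.43 CPM (SD, n = 3) in WT, 12.4 ± 0.101 in rab8d-2, 24.9 ± 1.08 in the atm-2 double mutant and 31.9 ± 1.19 in the sog1-1 double mutant. It rose by 1.01 ± 0.06 with atm-2, 1.36 ± 0.06 with sog1-1 and 0.52 ± 0.07 with the nac044-1 label against rab8d-2, and was at 0.10 ± 0.07 with nac085-1. Against rab8d-2, 3 of the 11 were higher and 5 lower with atm-2, beside 31.7% and 29.9% of all genes. With sog1-1 the counts were 5 and 3 (3 and 2 with DESeq2), beside 28.7% and 26.0%. They were 6 and 0 with the nac044-1 label, beside 24.3% and 18.6%, and 1 and 4 with nac085-1, beside 31.8% and 31.7%. HSP26.5, a gene with 0.177 CPM in rab8d-2 and 1.36 CPM with the nac044-1 label, rose there by 2.90 ± 0.45, and HSP22.0, of the endoplasmic reticulum, by 1.97 ± 0.50. The mitochondrial HSP23.5 fell by 1.88 ± 0.07 with atm-2 and by 1.65 ± 0.07 with nac085-1.

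The constitutive cytosolic chaperones moved the other way in rab8d-2, where 6 of 6 were higher than in WT, beside 31.7% of all genes. These rises were small, at 0.10 to 0.22 on the log2 scale. HSC70-1, the main housekeeping HSP70, had 1777 ± 21.1 CPM in WT and 2066 ± 40.0 in rab8d-2. Against rab8d-2, 2 of the 6 were higher and 3 lower with atm-2, beside 31.7% and 29.9% of all genes. With sog1-1 the counts were 0 and 5, beside 28.7% and 26.0%. They were 0 and 6 with the nac044-1 label, beside 24.3% and 18.6%, and 2 and 4 with nac085-1, beside 31.8% and 31.7%. HSC70-2 fell by 1.44 ± 0.06 with atm-2, 1.16 ± 0.06 with sog1-1 and 1.09 ± 0.06 with nac085-1. With the nac044-1 label HSP90.2 was at -0.42 ± 0.03 and HSP90.3 at -0.35 ± 0.03, where the inducible HSP90.1 was at 0.09 ± 0.04.

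Of 15 other HSF genes tested out of 18 listed, 3 were higher and 6 lower in rab8d-2 against WT. The shares of all genes there were 31.7% and 32.9%. HSFA6B fell most, from 46.1 ± 1.49 CPM in WT to 17.79 ± 1.10 (-1.37 ± 0.06), and HSFB4, a factor of root stem cell divisions, rose by 0.83 ± 0.08. Against rab8d-2 the counts were 5 and 7 with atm-2, beside 31.7% and 29.9% of all genes. With sog1-1 they were 4 and 8 (2 and 9 with upper quartile scaling), beside 28.7% and 26.0%. They were 4 and 2 with the nac044-1 label, beside 24.3% and 18.6%, and 2 and 7 with nac085-1, beside 31.8% and 31.7%. HSFA6B fell further with atm-2, to 2.95 ± 0.753 CPM (-2.59 ± 0.12), and with sog1-1 (-1.10 ± 0.08). HSFA3, a factor activated by DREB2A, fell by 1.86 ± 0.14 with atm-2, 0.81 ± 0.11 with sog1-1 and 1.02 ± 0.11 with nac085-1, and rose by 0.35 ± 0.09 with the nac044-1 label. Of the HSFA1 genes, the main activators at the start of the heat response, HSFA1A was at 0.27 ± 0.09 and HSFA1B at -0.31 ± 0.06 in rab8d-2 against WT, both called, and they are named here although their changes were small. HSFA1D and HSFA1E were tested too, and their values are not given here.

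Of 14 co-chaperones and other heat response genes tested, 5 were higher and 6 lower in rab8d-2 against WT, beside 31.7% and 32.9% of all genes. The lower ones included MBF1C, a transcriptional coactivator of the heat response, at -0.88 ± 0.09, and DREB2A, a factor of drought and heat responses, which fell from 104 ± 3.76 to 59.9 ± 2.41 CPM (-0.80 ± 0.04). Against rab8d-2, 0 of the 14 were higher and 10 lower with atm-2, beside 31.7% and 29.9% of all genes. With sog1-1 the counts were 4 and 10, beside 28.7% and 26.0%. They were 6 and 2 with the nac044-1 label, beside 24.3% and 18.6%, and 0 and 11 with nac085-1, beside 31.8% and 31.7%. DREB2A fell by 2.09 ± 0.06 with atm-2, 1.29 ± 0.05 with sog1-1 and 1.13 ± 0.05 with nac085-1, and rose by 0.26 ± 0.04 with the nac044-1 label. ROF2, a prolyl isomerase that works with HSP90, fell by 1.24 ± 0.04 with atm-2 and 1.23 ± 0.04 with nac085-1, and rose by 0.31 ± 0.03 with sog1-1.

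**Figure D3:**
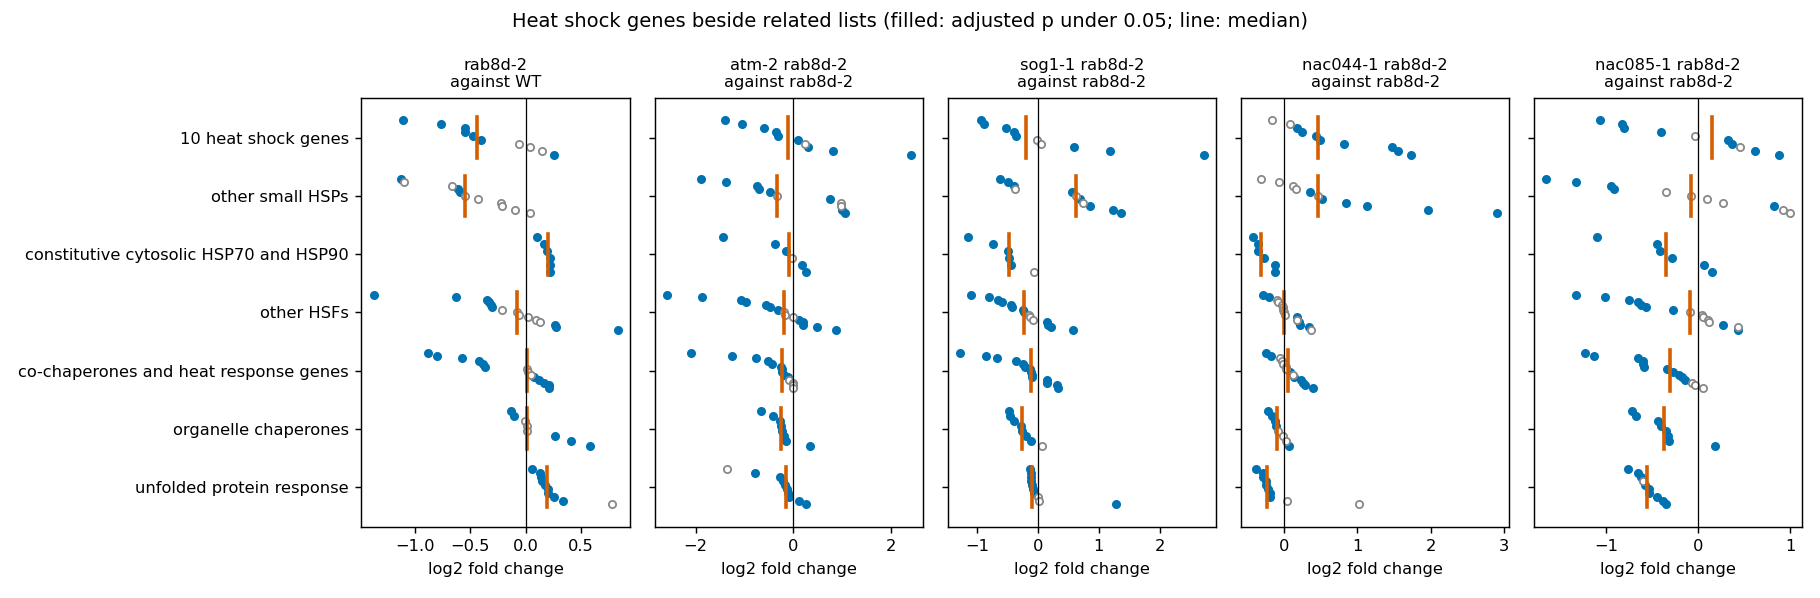
log2 fold changes of the 10 genes and of 6 lists of related genes (rows) in 5 comparisons (panels), each gene a point, filled where the adjusted p was under 0.05, with the list median as a vertical line. The median of the 10 genes is -0.44 in rab8d-2 against WT and 0.47 with the nac044-1 label against rab8d-2, where the constitutive HSP70 and HSP90 genes have medians of 0.20 and -0.31.

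In rab8d-2 against WT, 3 of 8 organelle chaperones were higher and 2 lower (3 and 0 with upper quartile scaling), beside 31.7% and 32.9% of all genes, with mtHsc70-1, the main HSP70 of mitochondria, at 0.58 ± 0.03. Of 10 genes of the unfolded protein response, the reaction of the endoplasmic reticulum to misfolded proteins, 9 were higher and 0 lower, with BZIP60, a factor of that response, at 0.34 ± 0.03. Against rab8d-2 the organelle chaperones counted 1 higher and 7 lower with atm-2, beside 31.7% and 29.9% of all genes. With sog1-1 they counted 0 and 7, beside 28.7% and 26.0%. The counts were 1 and 4 with the nac044-1 label, beside 24.3% and 18.6%, and 1 and 7 with nac085-1, beside 31.8% and 31.7%. The unfolded protein response genes counted 2 and 7, 1 and 7, 0 and 8 and 0 and 9 in that order.

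Clock genes and touch-responsive genes differed between the same groups, and both kinds of genes can move with the hour or the handling at harvest. The summed level of 5 dawn clock genes (CCA1, LHY, PRR9, RVE1 and RVE8) was 18.6 to 20.3 CPM per library in WT, 13.2 to 14.8 in rab8d-2, 115 to 118 in the atm-2 double mutant and 82.8 to 87.3 in the sog1-1 double mutant. It was 17.7 to 20.8 with the nac044-1 label and 23.9 to 25.6 in the nac085-1 double mutant. All 5 were higher with atm-2 and with sog1-1 than in rab8d-2, beside 31.7% and 28.7% of all genes. The 2 groups with the highest HSP17.6II are the 2 with the highest dawn clock genes. HSP17.6II had 3.98 CPM with sog1-1 and 3.19 with atm-2, a difference that was not called (adjusted p = 0.0647). The mean dawn sums there were 84.9 and 116. CCA1 and LHY were higher with sog1-1 than with atm-2 (0.34 and 0.22), and RVE1 and PRR9 were lower (-1.38 and -0.95). RVE8 was not called (0.08). Each of the other heat shock genes had its highest mean in WT, with the nac044-1 label or in the nac085-1 double mutant.

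The summed level of 5 dusk clock genes (TOC1, GI, LUX, ELF4 and PRR5) was 665 to 679 CPM in WT, 584 to 612 in rab8d-2, 320.3 to 325 in the atm-2 double mutant and 306 to 318 in the sog1-1 double mutant, and 641 to 679 in the other groups. The summed level of 10 touch and wounding genes was 2449.7 to 2537 CPM in WT, 2116 to 2153 in rab8d-2, 1813 to 1856 in the sog1-1 double mutant and 2076 to 2162 with the nac044-1 label. It was 369 to 377 CPM in the atm-2 double mutant and 445 to 462 in the nac085-1 double mutant. All 10 genes were lower in both than in rab8d-2, beside 29.9% and 31.7% of all genes. These 2 groups are also those with the lowest HSP90.1 and HSP70-4. The part of the hour or of handling in the heat shock results was not tested.

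**Figure D4:**
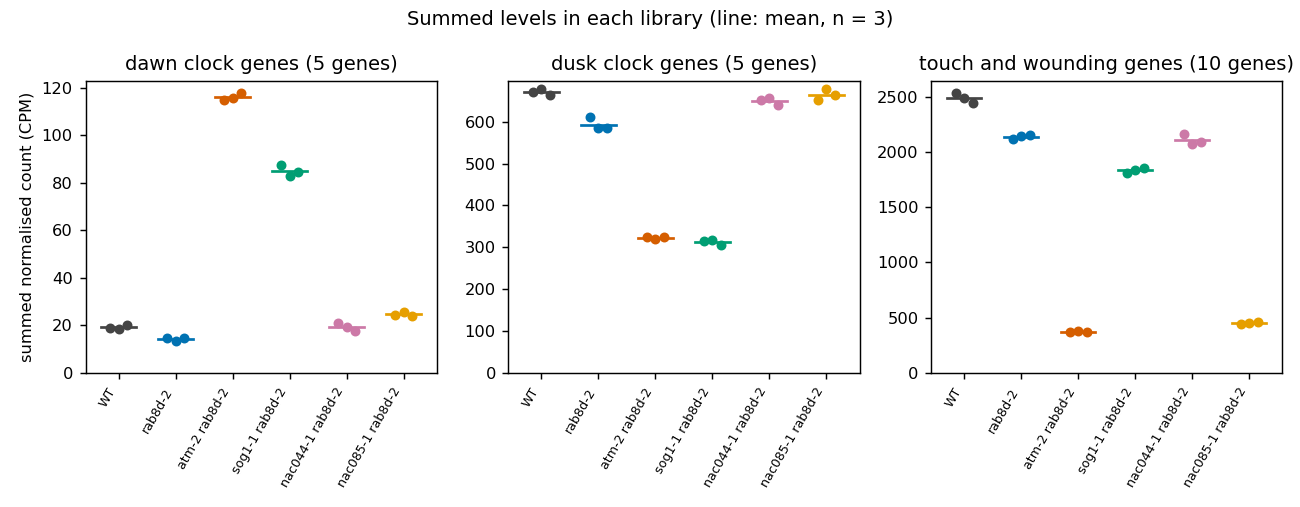
Summed normalised counts (CPM, linear axes from 0) of 5 dawn clock genes, 5 dusk clock genes and 10 touch and wounding genes in each library (points), with the group mean (line, n = 3). The dawn sum is highest in the atm-2 double mutant and the sog1-1 double mutant (means 116 and 84.9 CPM), and the touch sum is lowest in the atm-2 double mutant and the nac085-1 double mutant (means 372 and 451 CPM).

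For 4 of the genes the 5 other genes most like them across the 18 libraries were found by Pearson correlation of log2 CPM among 17666 genes, as a description. The 18 points are 6 groups of 3 and share the scaling, so a high value says mainly that the group means follow the same order. For HSP90.1 the closest was AT1G80380 (r = 0.993), with 184 CPM in WT, 127 in rab8d-2, 40.4 in the atm-2 double mutant and 59.4 in the nac085-1 double mutant, followed by AT1G24330, AT3G14260, TOPP1 and AT4G09640. For HSP101 it was SCAMP2 (r = 0.972), with 10.6 CPM in WT and 10.13 with the nac044-1 label against 5.48 to 5.77 in the other double mutants, followed by AT1G07985, PIRL4, AT3G07190 and EMB2773. For HSFB1 it was ABCA7 (r = 0.975), from 49.5 CPM in WT to 85.0 in the nac085-1 double mutant, followed by UBP23, AT1G66930, AT4G19700 and AT3G58030. For HSFA2, with its low counts, it was AT3G62570 (r = 0.928), followed by LNG2, AT3G20230, HGL1 and XI-I. No heat shock gene outside the 10 was among these 20.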

How the data were processed

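Per the submitters' processing notes, the authors estimated counts per gene with RSEM 1.3.1, and the deposited table also holds their TPM and FPKM values for 25537 genes in 18 libraries. The FPKM values were not used, and TPM served only to compare levels between genes. Aligner, strand setting and genome build are not given in the sources used here. All 25462 nuclear transcript names of the table are in the TAIR10.1 annotation, which gave the coordinates and promoters. The estimated counts, of which 1.56% to 1.75% in a library carry decimals, were rounded to whole numbers.

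Tests used the quasi-likelihood method of edgeR 4.0.16 (R 4.3.3) on all 18 libraries with 1 mean per genotype, with TMM scaling (factors of 0.970 to 1.02) of the 19981 genes left by the tool's filter on low values. Adjustment was by Benjamini-Hochberg over all tested genes within each of 15 comparisons, a gene is called where the adjusted p is under 0.05, and log2 fold changes stand with their SE (standard error). The biological coefficient of variation was 2.38%. Replicates are biological by label, but nothing says that their plants grew separately, so the spread behind the p values may be technical in part. Pairs of libraries of 1 genotype varied 1.33 to 2.16 times as much as counting alone, so no library was a copy of another. Alternatives were DESeq2 1.42.0, median-of-ratios and upper quartile scaling, no filter, only the groups compared, a replicate block, and leaving out each library. Transcripts were compared with the genome by blastn 2.17.0, and the count steps were tested on simulated data.

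The 10 genes and all other lists were chosen with earlier results of these data known. Named genes of the other lists are up to 4 per comparison with the largest absolute log2 fold change among those called.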

Additional observations from a re-analysis of the deposited data

How the results depend on the processing

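The counts of heat shock genes called higher or lower in the 9 comparisons with rab8d-2 or WT stayed within 1.5 times under each alternative run. Of 1080 log2 fold changes of the 10 genes under these alternatives, 1060 kept their direction and their side of the threshold, 16 lost a call, 4 gained one and 0 turned. The lost calls there were those of HSP17.6A in the sog1-1 double mutant and of HSFA2 with the nac044-1 label against rab8d-2, of HSFB1 in the atm-2 double mutant against rab8d-2 and of HSP17.4 in the nac085-1 double mutant against WT, and the cause was not tested. One gain beyond those given above was HSP17.6A in the sog1-1 double mutant against WT without replicate 1 of the double mutant (0.63, adjusted p = 0.0496). For the 6 comparisons between double mutants the same alternatives were added after seeing the data, the counts also stayed within 1.5 times, and of 720 values 704 kept direction and side, 13 lost a call, 3 gained one and 0 turned. These included HSFA7A with nac085-1 against atm-2, lost without replicate 2 of nac085-1 (0.23, adjusted p = 0.0695), and HSFB1 with sog1-1 against atm-2, gained with upper quartile scaling (-0.09, adjusted p = 0.0047). With a replicate block no call of the 10 genes changed, and HSP101 in rab8d-2 against WT was at -0.54 as without it. The numbers do not pair the libraries: over 45 pairs of same-numbered libraries the deviations correlated at -0.284 to 0.144, with 3 over 0.1. In the related lists, upper quartile scaling moved the other HSFs in the sog1-1 double mutant against rab8d-2 from 4 higher and 8 lower to 2 and 9, and DESeq2 moved the other small heat shock genes there from 5 and 3 to 3 and 2. Depth limits HSP17.6II, HSP17.6A and HSFA2, with 8 to 83 estimated counts in a library, and smaller differences of these genes were not detectable here. The same limit holds for HSP17.4, which had 1.35 CPM in its lowest library, of rab8d-2, and 5.998 in its highest.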
